A study of Mus musculus with 4 samples.

Results

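The genes of arginine and itaconate metabolism described here number 7, of the 30406 genes listed in all 4 libraries, which hold single immune cells of mouse brain tumours. They are Arg1, Arg2, Odc1, Nos2, Ass1, Slc7a2 and Acod1. They were chosen by name for their place in these pathways, and no measured value enters the rule. Earlier results of these data were known when they were chosen. The 4 libraries are droplet libraries of CD45.2+ live cells from brains carrying GL261, a mouse glioma line injected into the brain. They are IFNaR-/- mice (KO) without treatment, wild-type mice (WT) without treatment, KO mice given anti-PD1 and WT mice given anti-PD1. PD1 is a receptor that restrains T cells, and anti-PD1 blocks it. The antibody was given into the abdomen at 200 ug per mouse on days 7, 11, 15 and 19 after tumour injection. Untreated brains were taken on day 20 and treated brains on day 25. For the treated libraries the labels also describe mixing CD3+ and CD3- sorted cells in equal parts, so shares of T cells and of other cells in them are set by the sort. Cells of several mice were pooled into each library. The number of mice, their age and the deleted receptor subunit are not given in the sources used here. Each group is 1 library, so no difference below has a replicate check, no p-value is given, and every interval is a 95% interval that covers counting error only.

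Macrophages can spend arginine in competing ways. Arginase, cytosolic as Arg1 and mitochondrial as Arg2, splits it into urea and ornithine, and Odc1 turns ornithine into putrescine, the first polyamine. The inducible nitric oxide synthase encoded by Nos2 turns arginine into nitric oxide and citrulline, Ass1 takes part in making arginine from citrulline again, and Slc7a2 encodes a transporter that brings arginine into the cell. Acod1, also known as Irg1, encodes the mitochondrial enzyme that makes itaconate from the Krebs cycle intermediate cis-aconitate, and itaconate inhibits succinate dehydrogenase. In cultured mouse macrophages, interferons and bacterial products are known inducers of Nos2 and Acod1, and interleukin 4 is a known inducer of Arg1.

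On the GRCm38 build all 7 are protein-coding genes. Arg1 lies at chr10:24915221-24927484 on the minus strand, and the other 6 lie on the plus strand. Arg2 lies at chr12:79130777-79156301, Odc1 at chr12:17544794-17551505 and Nos2 at chr11:78920787-78960254. Ass1 lies at chr2:31470207-31520672, Slc7a2 at chr8:40862396-40922308 and Acod1 at chr14:103046977-103056573. The 250 bases before the RefSeq start were at hand for 3 of the 7 members, Acod1, Ass1 and Odc1. Arg1, Arg2, Nos2 and Slc7a2 were not in the set and were not searched. The stretches of Acod1 (chr14:103046762-103047011, plus strand) and of Ass1 (chr2:31470020-31470269, plus strand), both GRCm38.p6, are shown. Of the 3, these 2 genes were lower in KO than in WT macrophages with and without anti-PD1, as was Nos2. Capitals mark CpG dinucleotides.

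Acod1: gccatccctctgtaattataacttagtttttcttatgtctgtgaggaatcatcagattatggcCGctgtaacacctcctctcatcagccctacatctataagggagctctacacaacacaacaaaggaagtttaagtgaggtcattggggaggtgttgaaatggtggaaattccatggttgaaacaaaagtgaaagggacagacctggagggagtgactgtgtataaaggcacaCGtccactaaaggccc
Ass1: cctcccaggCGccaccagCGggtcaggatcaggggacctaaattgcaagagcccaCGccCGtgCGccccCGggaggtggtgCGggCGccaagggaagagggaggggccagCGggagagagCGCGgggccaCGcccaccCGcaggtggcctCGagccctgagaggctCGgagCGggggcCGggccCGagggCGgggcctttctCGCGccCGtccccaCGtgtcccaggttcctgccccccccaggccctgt

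The Acod1 stretch held 2 CpG and was 44.4% G or C, and the Ass1 stretch held 23 CpG and was 75.6% G or C. The same stretch of Odc1 held 35 CpG at 80.0% G or C. Over all 32851 RefSeq stretches of this length the medians were 6 CpG and 52.4%. A set of 7 motifs was searched on both strands, and the share of all stretches with a match is given for each. They were the interferon-stimulated response element (2.977%), the interferon-gamma activated site as TTCNNNGAA (7.02%) and the STAT6 site, whose spacing is 1 base longer (5.854%). The others were the C/EBP site as TTGCNNAA (9.564%), the AP-1 site as TGANTCA (6.749%), the E-box as CACGTG (6.021%) and the NF-kB consensus (3.899%). The single match in the 3 stretches searched was a CACGTG in that of Ass1, beginning 36 bases before the RefSeq start. The gene spans given above are from GENCODE and begin before the RefSeq starts used here. The ends of all 3 stretches, with this match, therefore lie inside those spans. The Acod1 and Odc1 stretches held none of these letter strings.

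After cells with under 200 detected genes or over 10% mitochondrial counts, and called doublets, were left out, 2726 KO and 4982 WT cells remained without treatment, and 7881 KO and 8742 WT cells after anti-PD1. The libraries held 32410040 to 94732545 UMIs (counted RNA molecules) in all. The mitochondrial limit took 24.2% of KO and 21.0% of WT barcodes without treatment, against 3.30% of KO and 0.693% of WT barcodes after anti-PD1. The KO and WT libraries shared 3 cell barcodes without treatment and 95 after anti-PD1, and no other pair of libraries shared more than 2. Cells were put in a lineage by raw marker genes, none of them among the 7. The macrophage gate, which also takes monocytes, held 945 KO and 1692 WT cells without treatment and 3699 KO and 5413 WT cells after anti-PD1. All 10 of its markers were detected in each library, with a summed level of 10975 CPM (UMIs of a gene scaled to a fixed total of UMIs, the same in every gate and library) in KO and 13496 CPM in WT macrophages without treatment, and of 14722 CPM in KO and 16939 CPM in WT macrophages after anti-PD1. In those macrophages the 8 microglial markers summed to 122 to 232 CPM, the 6 T cell markers to 2.49 to 29.1 CPM and the 6 neutrophil markers to 74.6 to 190 CPM. Of those markers Slc2a5 (microglia) was at 0 in untreated KO, S100a9 and Retnlg (neutrophils) in treated KO and S100a9 in treated WT macrophages. The 6 plasmacytoid dendritic markers summed to 127 CPM in KO and 771 CPM in WT macrophages without treatment, and to 251 CPM in KO and 1147 CPM in WT macrophages after anti-PD1. Nearly all of that sum was Bst2, a gene that interferon induces in many cell types, at 123 CPM in KO and 768 CPM in WT macrophages without treatment and at 249 CPM in KO and 1147 CPM in WT macrophages after anti-PD1. The defining marker Siglech stood at 0.0592 to 0.410 CPM there. Bst2 is 1 of the 6 plasmacytoid markers of the gate, so a cell that held it needed more macrophage markers to be placed. With Bst2 higher in WT cells, the gate asked more of them, and a gate without Bst2 was not tested. Ifnar1 stood at 138 CPM in KO and 133 CPM in WT macrophages without treatment, and at 150.01 CPM in KO and 83.2 CPM in WT macrophages after anti-PD1. Ifnar2 stood at 90.8 and 199.9 CPM in the KO libraries, untreated first, and at 133 and 311.5 CPM in the WT ones. Neither subunit was absent from the KO libraries, and since the deleted subunit and stretch are not given, these counts cannot check the genotype labels.

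In macrophages, Arg1 and Slc7a2 were higher and Nos2, Ass1 and Acod1 lower in KO than in WT libraries, both without treatment and after anti-PD1. Without treatment 508 of the 10245 genes that reached a minimum of 50 UMIs summed over both libraries (4.96%) were at least 2-fold higher in KO macrophages, among them Arg1 and Slc7a2, 2 of the 7 members. At least 2-fold lower were 467 genes (4.56%), among them Nos2 and Acod1, also 2 of 7. After anti-PD1, 1122 of 11528 genes (9.73%) were at least 2-fold higher in KO macrophages, with 0 of the 7 members among them, and 910 (7.89%) were at least 2-fold lower, with Nos2, Ass1 and Acod1, 3 of 7. Since the members were chosen with earlier results of these data known, these counts are description only. All 7 members passed the 50-UMI minimum in both pairs. In each pair 3 members were higher and 4 lower in KO macrophages, and the 3 and the 4 were the same genes. The median log2 KO/WT of the 7 was -0.47 without treatment, where the median of all genes was 0.09, and -0.38 after anti-PD1, where it was 0.12. In cells scaled by other size factors, all log2 values without treatment shifted by -0.15 (TMM) or -0.14 (DESeq2), and those after anti-PD1 by -0.13 or -0.09, with no change of direction for any member. With either factor Arg1 without treatment fell short of 2-fold and Ass1 passed it, so that 1 of 7 members (Slc7a2) was at least 2-fold higher and 3 of 7 (Nos2, Ass1 and Acod1) lower, while the treated counts stayed at 0 and 3.

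**Figure D1:**
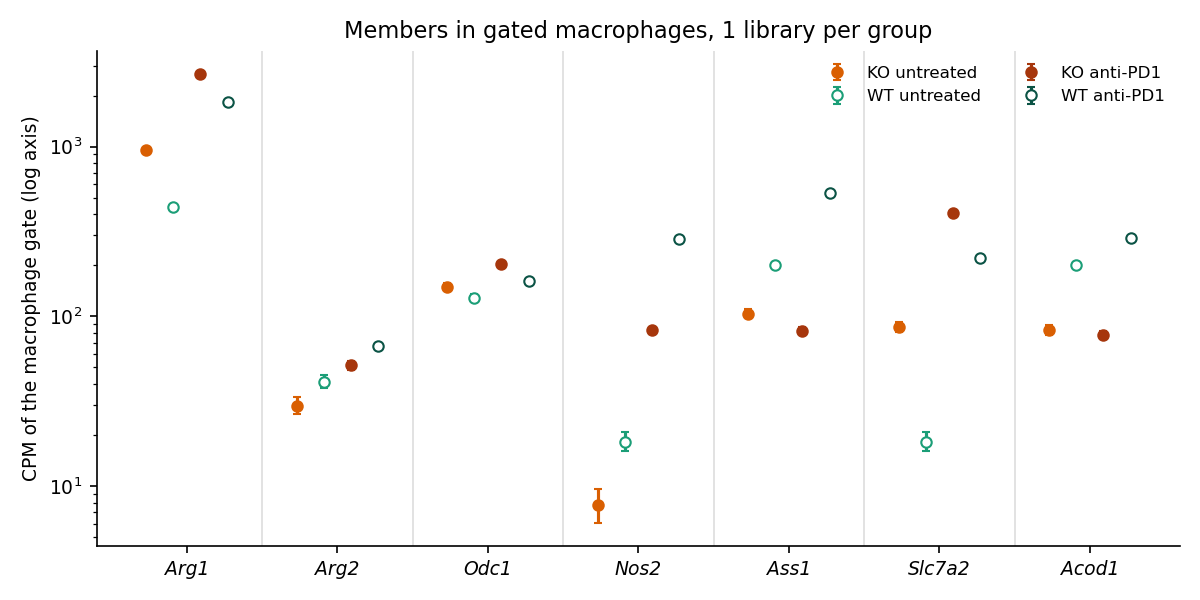
Level of each of the 7 genes in gated macrophages (CPM, log axis) in the 4 libraries; points are 1 library each and bars are exact 95% Poisson intervals for counting error. Arg1 and Slc7a2 lie higher in KO (filled) than in WT (open) in both pairs, and Nos2, Ass1 and Acod1 lie lower in KO.

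Arg1 encodes the cytosolic arginase and is a common marker of alternatively activated mouse macrophages. Arg1 stood at 949.7 CPM in KO and 443 CPM in WT macrophages without treatment, and at 2685 CPM in KO and 1822 CPM in WT macrophages after anti-PD1. The KO level was 2.14-fold the WT level without treatment (log2 1.10, interval 1.05 to 1.15) and 1.47-fold after anti-PD1 (log2 0.56, 0.54 to 0.57). Of all genes measured, 96.1% had a lower log2 KO/WT than Arg1 without treatment and 75.8% after anti-PD1. To compare cells of unequal depth, each was thinned to 1000 UMIs, which left 914 KO and 1667 WT macrophages without treatment and 3378 KO and 5325 WT macrophages after anti-PD1. At that depth 36.9% of KO and 13.9% of WT macrophages held an Arg1 UMI without treatment, and 70.3% of KO and 50.1% of WT macrophages after anti-PD1. Without thinning the shares were 59.2% of KO and 24.8% of WT macrophages, and 85.7% of KO and 70.8% of WT macrophages after anti-PD1. T cells, which should lack Arg1, gave thinned shares of 0.497% (KO) and 0.451% (WT) without treatment, and 8.49% (KO) and 2.78% (WT) after anti-PD1, with median depths of 3351 (KO) and 4908 (WT) UMIs in the treated pair against 4604 (KO) and 8532 (WT) UMIs in its macrophages. The macrophage shares lay above that background in every library, and the background was itself higher in KO than in WT cells after anti-PD1.

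The amount of Arg1 per macrophage was described in thinned cells. The 10% of thinned cells with most Arg1 held 56.0% of its UMIs in KO and 89.5% in WT macrophages without treatment, and 36.9% in KO and 45.8% in WT macrophages after anti-PD1. This measure climbs as fewer cells hold a UMI, so its order over libraries does not rank unevenness. In untreated WT macrophages 13.9% of cells held an Arg1 UMI, and the scarcer Arg2, Nos2 and Slc7a2 gave 100% there. Cells with 5 or more Arg1 UMIs of 1000 made up 5.14% of KO and 1.92% of WT macrophages without treatment, and 19.1% of KO and 11.6% of WT macrophages after anti-PD1. The highest single cells held 17, 17, 23 and 20 Arg1 UMIs of 1000 in untreated KO, untreated WT, treated KO and treated WT macrophages.

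The second arginase and the next enzyme of the ornithine branch differed less between genotypes. Arg2 stood at 29.8 CPM in KO and 41.2 CPM in WT macrophages without treatment (log2 -0.47, -0.68 to -0.26), and at 51.6 CPM in KO and 67.3 CPM in WT macrophages after anti-PD1 (log2 -0.38, -0.48 to -0.28). Odc1, the ornithine decarboxylase, stood at 149.8 CPM in KO and 129 CPM in WT macrophages without treatment (log2 0.21, 0.11 to 0.32). After anti-PD1 it stood at 202 CPM in KO and 161 CPM in WT macrophages (log2 0.33, 0.28 to 0.39). Odc1 thus lay near the middle of all genes, of which 59.7% had a lower log2 KO/WT without treatment and 63.4% after anti-PD1. Its small untreated difference turned round in thinned cells (log2 -0.02) and in C1q-state cells alone (log2 -0.06).

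Slc7a2, the arginine transporter that serves both arms, lay with Arg1 rather than with Nos2 in its direction. It stood at 86.6 CPM in KO and 18.3 CPM in WT macrophages without treatment, and at 407 CPM in KO and 221 CPM in WT macrophages after anti-PD1. The KO level was 4.74-fold the WT level without treatment (log2 2.24, 2.03 to 2.46), above 99.4% of all genes, and 1.84-fold after anti-PD1 (log2 0.88, 0.84 to 0.92). In thinned cells 6.78% of KO and 1.68% of WT macrophages held a UMI of it without treatment, and 21.3% of KO and 14.2% of WT macrophages after anti-PD1. T cells gave 0.331% (KO) and 0.0751% (WT) without treatment, and 1.04% (KO) and 1.11% (WT) after anti-PD1.

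Nos2, the inducible nitric oxide synthase, was scarce without treatment and lower in KO macrophages in both pairs. It stood at 7.68 CPM in KO (75 UMIs in all) and 18.3 CPM in WT macrophages (232 UMIs) without treatment, and at 82.6 CPM in KO and 287 CPM in WT macrophages after anti-PD1. The KO level was 2.38-fold lower without treatment (log2 -1.24, -1.65 to -0.87) and 3.47-fold lower after anti-PD1 (log2 -1.80, -1.87 to -1.72). In thinned cells 0.547% of KO (0.178 to 1.27%) and 1.68% of WT macrophages held a Nos2 UMI without treatment, and 4.80% of KO and 18.8% of WT macrophages after anti-PD1. T cells gave 0.166% (0.00419 to 0.919%) in KO and 0.150% in WT libraries without treatment, and 0.596% in KO and 1.11% in WT libraries after anti-PD1. The interval of the untreated KO macrophage share, which rests on 5 thinned cells, overlapped that of its T cells. On all counts Nos2 in that library stood at 7.68 CPM (6.04 to 9.63) in macrophages against 0.575 CPM (0.157 to 1.47) in T cells, and unthinned shares were 3.17% of macrophages and 0.328% of T cells at median depths of 9895 and 9275.5 UMIs. Nos2 thus lay above the T cell level in macrophages of every library.

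Ass1, which joins citrulline and aspartate on the way back to arginine, had the lowest log2 KO/WT of the 7 after anti-PD1. It stood at 103.6 CPM in KO and 201 CPM in WT macrophages without treatment, and at 82.4 CPM in KO and 533 CPM in WT macrophages after anti-PD1. The KO level was 1.94-fold lower without treatment (log2 -0.95, -1.06 to -0.85) and 6.47-fold lower after anti-PD1 (log2 -2.69, -2.76 to -2.62). The treated difference lay below all but 0.833% of genes. In thinned cells 8.97% of KO and 14.5% of WT macrophages held an Ass1 UMI without treatment, and 6.84% of KO and 34.7% of WT macrophages after anti-PD1.

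Acod1, the itaconate-forming enzyme, stood at 83.1 CPM in KO and 200.0 CPM in WT macrophages without treatment, and at 77.6 CPM in KO and 289.5 CPM in WT macrophages after anti-PD1. The 2 KO libraries thus lay close together and both WT libraries above them. The KO level was 2.41-fold lower without treatment (log2 -1.27, -1.38 to -1.15) and 3.73-fold lower after anti-PD1 (log2 -1.90, -1.98 to -1.83). In thinned cells 6.13% of KO and 14.6% of WT macrophages held an Acod1 UMI without treatment, and 6.19% of KO and 22.5% of WT macrophages after anti-PD1, against at most 1.11% of T cells in any library.

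Several other measures differed between KO and WT macrophages, and their part in the differences above was not tested. Median depth was 9895 UMIs in KO and 6958.5 in WT macrophages without treatment, and 4604 in KO and 8532 in WT macrophages after anti-PD1. The median mitochondrial share of a cell was 4.04% in KO and 2.76% in WT macrophages without treatment, and 1.57% in KO and 0.552% in WT macrophages after anti-PD1, higher in KO in both pairs. Among genes ranked by intron length into 10 equal bins, the median log2 KO/WT ran between -0.01 and 0.17 without treatment and between -0.16 and 0.45 after anti-PD1, where longer introns went with higher values. Set against genes of like intron length, the treated values were 0.65 for Arg1, 0.59 for Slc7a2, -2.01 for Nos2, -2.98 for Ass1 and -1.78 for Acod1 (log2). The 5 directions were as before.

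The anti-PD1 libraries were set beside the untreated ones of the same genotype, although the 2 pairs also differ in day, sort and processing version, which cannot be told apart from treatment. Nos2 was 10.8-fold higher in treated than in untreated KO macrophages and 15.7-fold higher in treated than in untreated WT macrophages. Slc7a2 was 4.70-fold higher in KO and 12.1-fold in WT macrophages, and Arg1 2.83-fold in KO and 4.11-fold in WT macrophages. Arg2 (1.73-fold in KO, 1.63-fold in WT) and Odc1 (1.35-fold in KO, 1.24-fold in WT) lay higher by less. The remaining members parted by genotype. Ass1 was 1.26-fold lower in treated than in untreated KO macrophages and 2.65-fold higher in treated than in untreated WT macrophages. Acod1 did not differ beyond counting error in KO macrophages (log2 -0.10, -0.22 to 0.02) and was 1.45-fold higher in treated than in untreated WT macrophages. The difference between genotypes in these treatment ratios was not tested.

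Across the other lineages the 7 genes fell into different patterns. Arg1 was highest in macrophages in every library. Microglia, the resident macrophages of the brain, stood at 109.9 CPM in KO and held 0 counts in 260 WT cells without treatment, at least 76.5-fold higher in KO against a floor of 3 counts in the WT gate. After anti-PD1 microglia stood at 128 CPM in KO and 22.5 CPM in WT cells, 5.69-fold higher in KO (log2 2.50, 2.27 to 2.76). Arg1 UMIs came from a minority of the cells in the microglial gate, and more came from cells that also held macrophage markers. In KO microglia without treatment, 0 of 23 cells with no macrophage marker, 2 of 92 with 1 marker and 15 of 96 with 2 or more held an Arg1 UMI. Median depth of these classes was 3829, 7599.5 and 10609.5 UMIs, and their Arg1 level was 0, 56.0 and 155 CPM. In KO microglia after anti-PD1 the Arg1 level was 46.0, 78.2 and 187 CPM in the same 3 classes. In WT microglia without treatment all 3 classes were at 0, and after anti-PD1 the classes with 1 and with 2 or more markers stood at 8.39 and 31.2 CPM. Macrophage markers in the microglial gate summed to 1157 CPM in KO and 857 CPM in WT cells without treatment, and to 2363 CPM in KO and 2607 CPM in WT cells after anti-PD1. In T cells Arg1 stood at 2.87 CPM (KO) and 2.78 CPM (WT) without treatment and at 144 CPM (KO) and 93.4 CPM (WT) after anti-PD1, above the microglia of the same treated libraries. In treated KO T cells with 0, 1 and 2 or more macrophage markers Arg1 stood at 51.6 CPM (11 of 81 cells with a UMI), 57.0 CPM and 201 CPM. In treated WT T cells it stood at 0, 13.5 and 129 CPM in the same classes. The part of macrophage RNA in these microglial and T cell values was not tested. Neutrophils, dendritic cells, plasmacytoid dendritic cells, natural killer cells and basophils or mast cells of untreated brains held 0 to 3 Arg1 counts each.

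**Figure D2:**
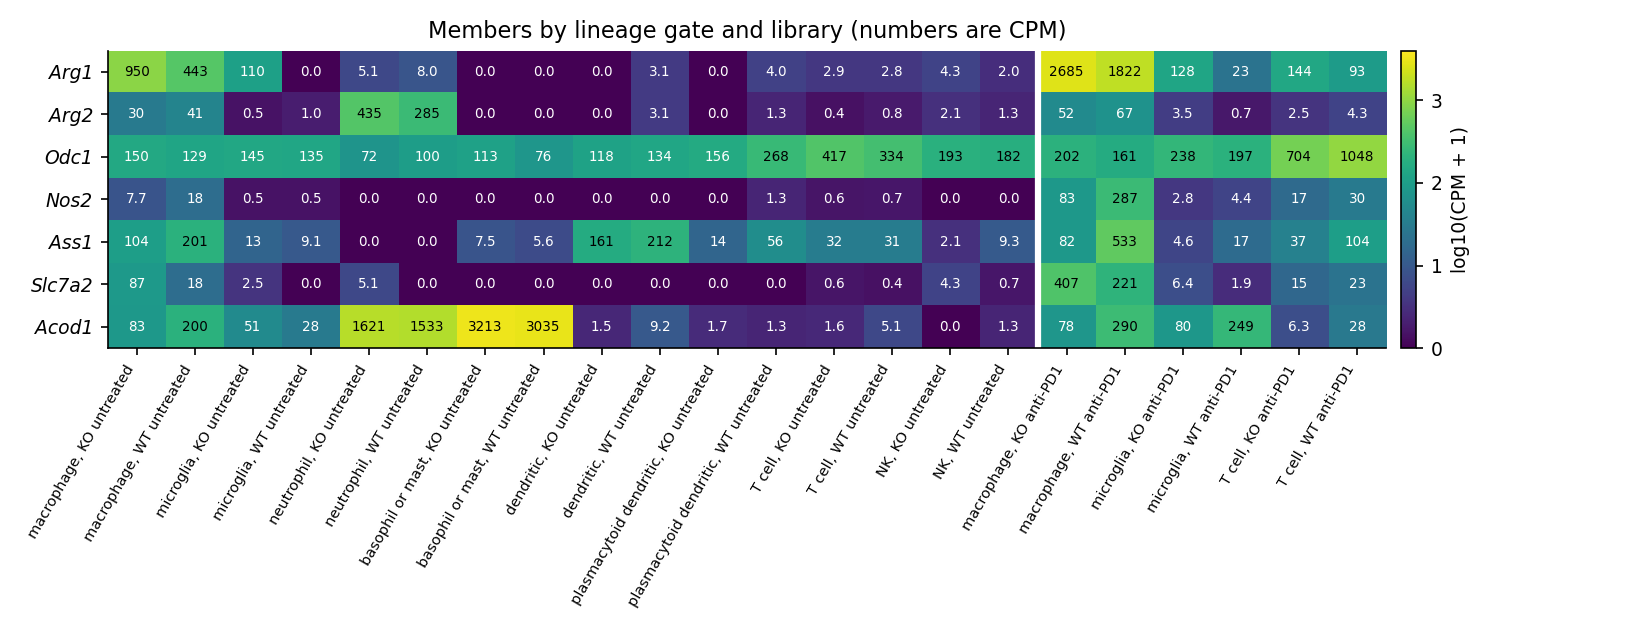
Level of the 7 genes (rows) in each lineage gate and library (columns); printed numbers are CPM and colour is log10(CPM + 1), with untreated libraries left of the white line and anti-PD1 libraries right of it. Acod1 is highest in basophils or mast cells and neutrophils, Arg2 in neutrophils and Odc1 in T cells, and Arg1, Nos2 and Slc7a2 in macrophages.

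Acod1 was highest outside macrophages. Basophils or mast cells of untreated brains stood at 3213 CPM in KO (56 cells) and 3035 CPM in WT (89 cells), and neutrophils at 1621 CPM in KO (73 cells) and 1533 CPM in WT (68 cells). Neither lineage differed between genotypes beyond counting error (log2 0.08, -0.05 to 0.21, and log2 0.08, -0.14 to 0.30). In thinned cells 73.2% of KO basophils or mast cells and 45.3% of KO and 47.1% of WT neutrophils held an Acod1 UMI. Microglia stood at 51.3 CPM in KO and 28.3 CPM in WT without treatment (log2 0.85, 0.39 to 1.35), and at 79.7 CPM in KO and 249 CPM in WT after anti-PD1 (log2 -1.64, -1.77 to -1.51). The CPM of Acod1 in KO microglia was thus higher than in WT without treatment and lower after anti-PD1, a difference between the pairs that was not tested. The untreated shares of microglia with an Acod1 UMI did not lean one way. They were 13.5% of KO and 14.2% of WT cells with 2 or more macrophage markers, and 8.70% and 5.31% with 1. These shares are not thinned, and KO cells were deeper, with medians of 10609.5 against 8977 and 7599.5 against 6434 UMIs. The CPM of Acod1 was higher in KO in both classes. It was 65.7 (51.7 to 82.2) against 35.4 (25.3 to 48.2) with 2 or more markers, and 35.6 against 23.0 with 1, where intervals overlap. Acod1 was also concentrated in microglial cells with macrophage markers. WT microglia after anti-PD1 stood at 165 CPM with 1 macrophage marker and 302 CPM with 2 or more, and KO microglia after anti-PD1 at 58.5 and 106 CPM.

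Arg2 was highest in neutrophils, at 435 CPM in KO and 285 CPM in WT cells without treatment (log2 0.61, 0.14 to 1.08), the opposite direction to macrophages. In the other named lineages outside macrophages it stood at 4.30 CPM or less. Odc1 was detected in every lineage and was highest in T cells. T cells stood at 417 CPM in KO and 334 CPM in WT without treatment (log2 0.32, 0.25 to 0.39) and at 704 CPM in KO and 1048 CPM in WT after anti-PD1 (log2 -0.57, -0.65 to -0.49). Plasmacytoid dendritic cells stood at 156 CPM in KO and 268 CPM in WT without treatment (log2 -0.78, -1.16 to -0.42). Odc1 in microglia stood at 145 CPM in KO and 135 CPM in WT without treatment, and at 238 CPM in KO and 197 CPM in WT after anti-PD1.

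Ass1 was the one member of the nitric oxide arm with a sizeable level outside macrophages. Dendritic cells of untreated brains stood at 161 CPM in KO and 212 CPM in WT (log2 -0.40, -0.78 to -0.03), with 0 Nos2 counts in either. T cells stood at 31.8 CPM in KO and 31.2 CPM in WT without treatment (log2 0.03, -0.22 to 0.26) and at 37.0 CPM in KO and 104.5 CPM in WT after anti-PD1 (log2 -1.49, -1.83 to -1.18). In WT T cells after anti-PD1 Ass1 stood at 84.6 CPM in cells with no macrophage marker, 76.1 CPM with 1 and 116 CPM with 2 or more. Plasmacytoid dendritic cells held 8 KO and 42 WT counts of Ass1, 13.9 CPM in KO and 56.3 CPM in WT. Nos2 and Slc7a2 lay at 6.35 CPM or less in microglia and at 1.34 CPM or less (Nos2) and 5.11 CPM or less (Slc7a2) in the other lineages of untreated brains. In T cells after anti-PD1 they stood at 16.6 CPM (Nos2) and 15.2 CPM (Slc7a2) in KO and at 29.8 CPM (Nos2) and 22.7 CPM (Slc7a2) in WT cells, with 0 counts of both in the 45 WT T cells without a macrophage marker.

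Macrophages of the 4 libraries differed in state, which was read from short marker lists in thinned cells. A cell was placed in a state when it held at least 2 of the 4 genes of that list and a larger share than of the others. Cells of a monocyte state (Ly6c2, Ccr2, Plac8, Vcan) made up 9.63% of KO and 47.9% of WT macrophages without treatment, and 1.89% of KO and 15.7% of WT macrophages after anti-PD1. Cells of a C1q state (C1qa, C1qb, C1qc, Ms4a7) made up 34.6% of KO and 25.0% of WT macrophages, and 73.7% of KO and 67.6% of WT macrophages after anti-PD1. Cells of an alternative state (Retnla, Chil3, Mrc1, Ccl24) made up 24.3% of KO and 0.720% of WT macrophages, and 4.85% of KO and 0 of 5325 WT macrophages after anti-PD1, which allows up to 0.0563%. The states are ranges and not types. Of the monocyte-state cells, 61 of 88 KO and 477 of 799 WT cells without treatment, and 60 of 64 KO and 606 of 835 WT cells after anti-PD1, lay at the minimum share.

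**Figure D3:**
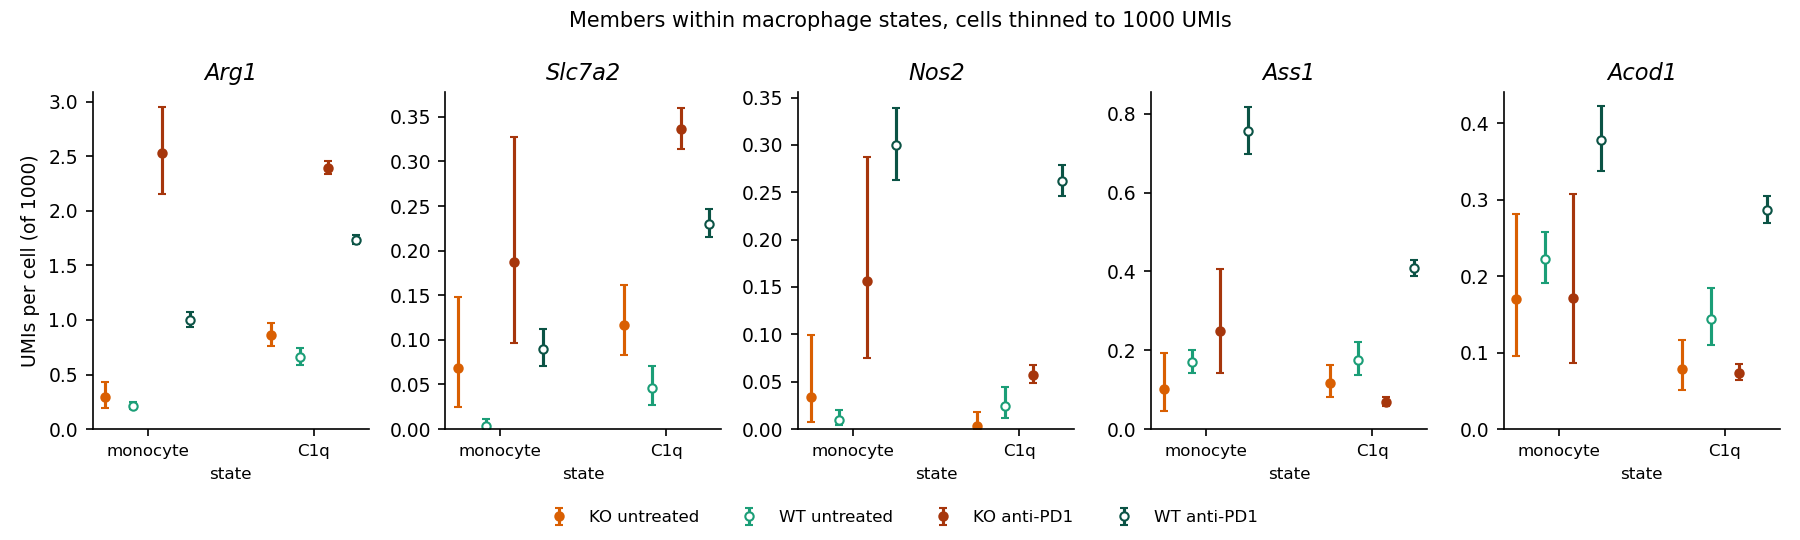
UMIs per cell of 5 of the genes in monocyte-state and C1q-state macrophages, each cell thinned to 1000 UMIs; points are 1 library each and bars are exact 95% Poisson intervals for counting error. Within C1q-state cells Arg1 and Slc7a2 remain higher and Nos2, Ass1 and Acod1 lower in KO than in WT libraries, with overlapping intervals for Nos2, Ass1 and Acod1 without treatment.

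Within a state the genotype differences of Arg1 were smaller without treatment. In C1q-state cells Arg1 stood at 0.864 UMIs per cell in KO and 0.664 in WT macrophages without treatment, and at 2.40 in KO and 1.74 in WT macrophages after anti-PD1. In monocyte-state cells it stood at 0.295 in KO and 0.212 in WT macrophages without treatment, and at 2.53 in KO and 1.00 in WT macrophages after anti-PD1. The log2 KO/WT of Arg1 was 0.38 in untreated C1q-state cells against 1.36 in all thinned macrophages, and 0.47 against 0.65 after anti-PD1. Alternative-state cells had the highest level in both KO libraries, with 1.68 Arg1 UMIs per cell without treatment and 4.30 after anti-PD1, and stood at 2.50 in the 12 such cells of untreated WT brains. Their share was higher in KO than in WT macrophages within each pair, as Arg1 was, but lower in treated than in untreated macrophages of both genotypes, where Arg1 was higher. Its part in the KO/WT difference over all macrophages was not tested beyond these values within states.

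Slc7a2 in C1q-state cells stood at 0.117 UMIs per cell in KO and 0.0456 in WT macrophages without treatment, and at 0.336 in KO and 0.230 in WT macrophages after anti-PD1. In monocyte-state cells it stood at 0.0682 in KO (6 UMIs) and 0.0038 in WT macrophages (3 UMIs) without treatment, and at 0.188 in KO and 0.0898 in WT macrophages after anti-PD1. Unlike Arg1, Slc7a2 was not highest in alternative-state cells, where it stood at 0.0586 in untreated and 0.293 in treated KO macrophages.

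Nos2 and Acod1 were also lower in KO within C1q-state cells, with overlapping intervals without treatment and separate ones after anti-PD1. Nos2 stood at 0.00316 UMIs per cell in KO (1 UMI) and 0.0240 in WT macrophages (10 UMIs) without treatment, and at 0.0575 in KO and 0.262 in WT macrophages after anti-PD1. In the few untreated monocyte-state cells with Nos2 the order was the other way, 0.0341 in KO (3 UMIs) and 0.0100 in WT macrophages (8 UMIs), with overlapping intervals. Acod1 stood at 0.0791 in KO and 0.144 in WT macrophages without treatment, and at 0.0739 in KO and 0.287 in WT macrophages after anti-PD1. Acod1 was higher in monocyte-state than in C1q-state cells of each library, at 0.170 in KO and 0.223 in WT macrophages without treatment and at 0.172 in KO and 0.378 in WT macrophages after anti-PD1. The KO monocyte-state values rest on 88 cells without treatment and 64 after anti-PD1. In untreated KO macrophages the Acod1 intervals of these states overlap. Ass1 in C1q-state cells stood at 0.117 in KO and 0.175 in WT macrophages without treatment, and at 0.0695 in KO and 0.408 in WT macrophages after anti-PD1. Treated monocyte-state cells held more of it, 0.25 in KO and 0.756 in WT macrophages.

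Hypoxia genes marked a second axis, along which Arg1 varied within each library and Nos2, Slc7a2 and Ass1 within the anti-PD1 libraries. Macrophages were split by their UMIs of 8 genes of the hypoxia response and glycolysis (Slc2a1, Vegfa, Ero1l, Ndrg1, Bnip3, Pgk1, Ldha, Egln3) into cells with 0 to 1, 2 to 4 and 5 or more of 1000. The summed level of the 8 genes was 1371 CPM in KO and 1320 CPM in WT macrophages without treatment, and 1925 CPM in KO and 2789 CPM in WT macrophages after anti-PD1. Arg1 per cell was higher in each higher class of all 4 libraries. It stood at 0.789, 1.02 and 2.10 UMIs in untreated KO macrophages and at 0.223, 0.592 and 1.12 in untreated WT macrophages. After anti-PD1 it stood at 1.91, 2.77 and 4.80 in KO macrophages and at 1.08, 1.69 and 2.22 in WT macrophages. In each class Arg1 was higher in KO than in WT macrophages.

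**Figure D4:**
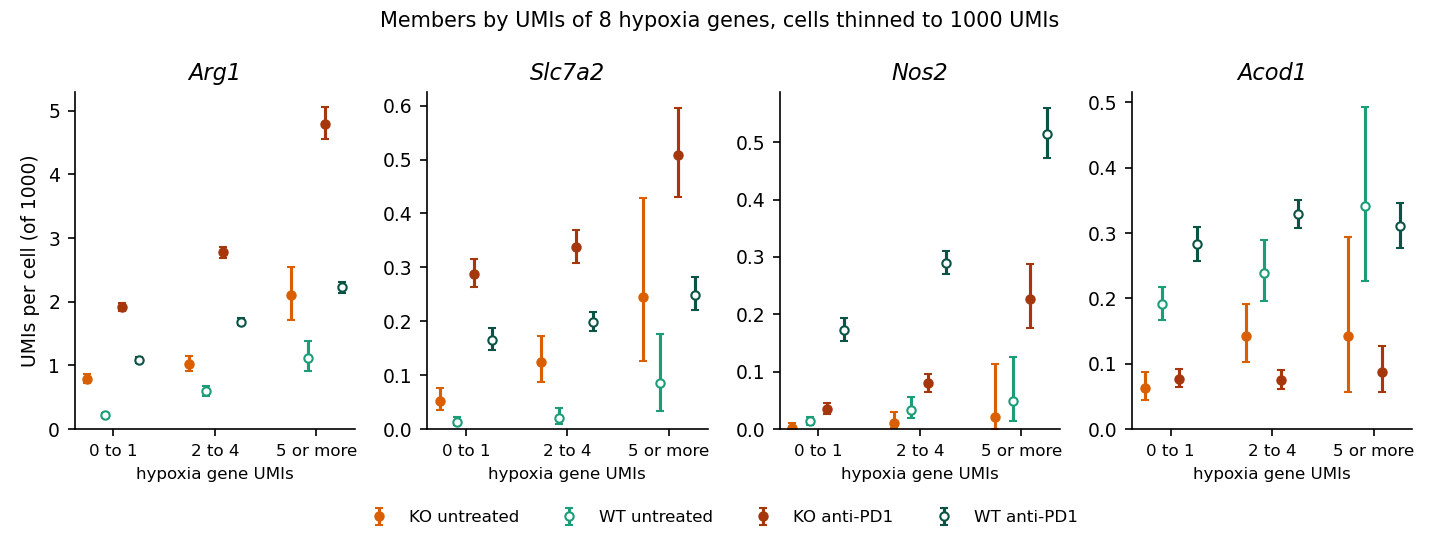
UMIs per cell of 4 of the genes by the number of UMIs of 8 hypoxia genes in the same cell, each cell thinned to 1000 UMIs; points are 1 library each and bars are exact 95% Poisson intervals for counting error. Arg1 climbs with hypoxia class in all 4 libraries and Nos2 in both anti-PD1 libraries, while Acod1 after anti-PD1 lies within 0.0752 to 0.0870 in KO and within 0.283 to 0.329 in WT macrophages.

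Nos2 followed the same order after anti-PD1, at 0.0351, 0.0795 and 0.227 UMIs per cell in KO macrophages and 0.172, 0.290 and 0.514 in WT macrophages. Slc7a2 after anti-PD1 stood at 0.288, 0.338 and 0.508 in KO macrophages and 0.166, 0.199 and 0.2495 in WT macrophages. Ass1 after anti-PD1 stood at 0.0523, 0.0903 and 0.140 in KO macrophages and 0.392, 0.506 and 0.635 in WT macrophages. Acod1 had no such order after anti-PD1, with 0.0772, 0.0752 and 0.0870 in KO macrophages and 0.283, 0.329 and 0.310 in WT macrophages. Cells at 5 or more hypoxia UMIs were few without treatment, 49 in KO and 82 in WT macrophages, against 299 in KO and 1054 in WT macrophages after anti-PD1.

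The enzymes of Arg1 and Nos2 draw on the same arginine, and their detection in the same or in separate macrophages was compared. In thinned cells both were detected in 128 of 3378 KO macrophages (3.79%) after anti-PD1, where the product of the single shares is 3.37%. Among WT macrophages after anti-PD1 both were detected in 596 of 5325 cells (11.2%), where the product is 9.43%. The ratio of observed to product was 1.12 (0.938 to 1.34) in KO and 1.19 (1.09 to 1.29) in WT macrophages. The observed joint share was therefore not below the product in either library, though the KO interval reaches under 1. These intervals are Poisson intervals of the joint count divided by the product. They ignore that the single counts bound the joint count, so they do not decide whether a ratio differs from 1. Among Nos2-positive cells 79.0% of KO and 59.4% of WT macrophages also held Arg1, against 69.9% of KO and 47.9% of WT macrophages without Nos2. Double-positive cells had a median original depth of 5856.5 UMIs in KO and 9796 in WT macrophages, against 4766 in KO and 7720.5 in WT macrophages with neither gene. Within cells of 5000 to 10000 original UMIs the ratio was 1.13 in KO (0.827 to 1.52) and 1.23 in WT macrophages (1.07 to 1.42). The share of cells with Nos2 also ran with the amount of Arg1. It was 3.39%, 3.99%, 5.34% and 6.83% in KO and 15.3%, 16.9%, 23.4% and 27.8% in WT macrophages with 0, 1, 2 to 4 and 5 or more Arg1 UMIs of 1000. Median original depth ran the same way, at 4808, 4907, 5223.5 and 5395.5 UMIs in KO macrophages of these classes. In WT macrophages it was 7663, 8937.5, 9915 and 10705.5 UMIs. Both genes also ran with hypoxia class in these libraries. The part of depth and of hypoxia class in this order was not tested.

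**Figure D5:**
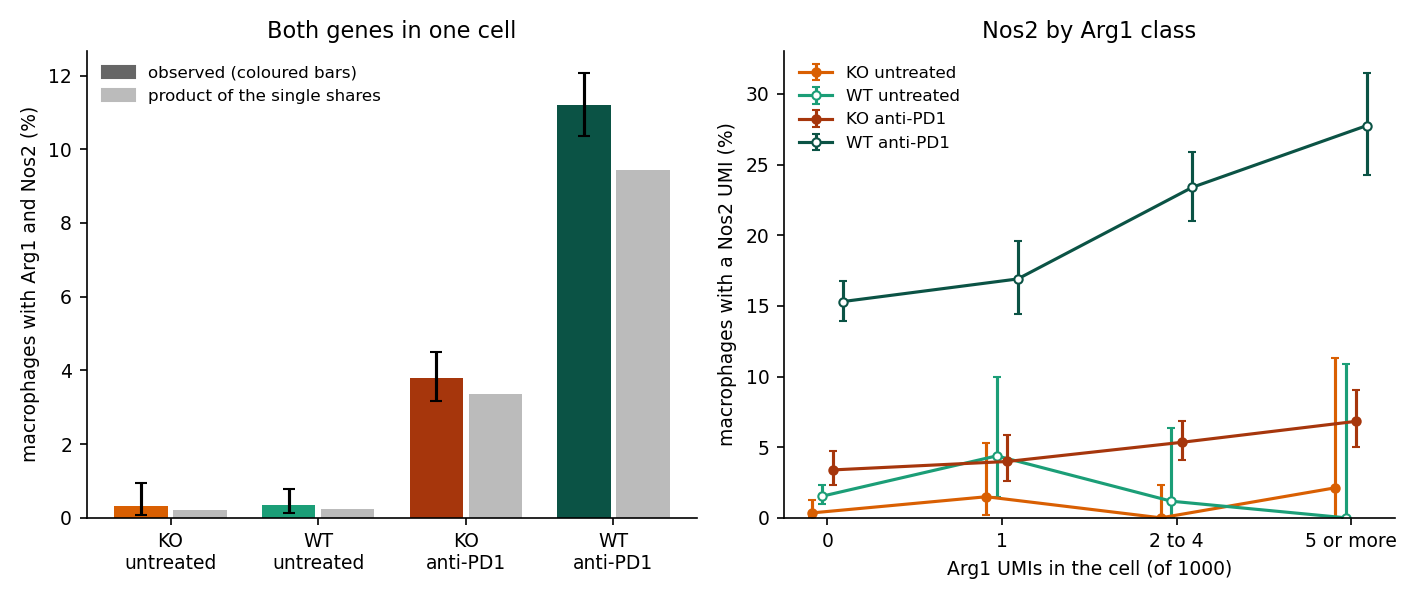
Left, percent of thinned macrophages with both Arg1 and Nos2 (coloured bars, exact 95% binomial intervals) beside the product of the single shares (grey bars). Right, percent of macrophages with a Nos2 UMI by their number of Arg1 UMIs of 1000, with the same intervals; in treated WT macrophages it runs between 15.3% and 27.8%, and the untreated libraries have few Nos2 cells.

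Without treatment Nos2-positive cells were too few to tell. Both genes were detected in 3 of 914 KO and 6 of 1667 WT macrophages, ratios of 1.63 (0.336 to 4.76) in KO and 1.55 (0.568 to 3.37) in WT macrophages. Arg1 with Acod1 gave ratios close to 1 on the lower side in all 4 libraries, 0.920 in KO and 0.976 in WT macrophages without treatment and 0.932 in KO and 0.907 in WT macrophages after anti-PD1. In treated WT macrophages 10.2% of cells held both (9.40 to 11.0%), where the product is 11.2%. Arg1 with Slc7a2 gave 1.62 in KO and 2.32 in WT macrophages without treatment, and 1.12 in KO and 1.35 in WT macrophages after anti-PD1. No such ratio can exceed 1 over the share of the commoner gene, here Arg1. Its share was 36.9% of KO and 13.9% of WT macrophages without treatment, and 70.3% of KO and 50.1% of WT macrophages after anti-PD1. The size of a ratio, for this and the other pairs, can therefore not be compared between libraries. The ratio intervals ignore that limit, and the upper end of 4.76 for Arg1 with Nos2 in untreated KO macrophages lies above it. Nos2 with Slc7a2 gave 1.77 in KO (61 cells) and 1.54 in WT macrophages (220 cells) after anti-PD1, so the transporter was seen more often than the product with both arginine-using enzymes. Cells with Nos2 and Slc7a2 had a median original depth of 9156 UMIs in KO and 11237 in WT macrophages, against 4794 and 8376 with neither gene. Treated cells with Arg1 and Slc7a2 had 6415 in KO and 12030 in WT macrophages, against 4665 and 7567.5 with neither. No depth window was set on the Slc7a2 pairs, and the part of depth was not tested. Nos2 with Acod1 gave 2.99 in KO (30 cells) and 1.26 in WT macrophages (283 cells) after anti-PD1, and Nos2 with Ass1 gave 2.08 in KO and 1.22 in WT macrophages. Arg1 with Ass1 gave 0.860 in KO and 0.898 in WT macrophages without treatment and 0.979 in KO and 1.02 in WT macrophages after anti-PD1. These ratios are over cells of 1 library, and cells share its ambient RNA.

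Other genes of the same pathways were counted from lists chosen for their role, against the same backgrounds as above. The lists too were chosen with earlier results of these data known. Of 12 genes of arginine uptake and the urea cycle, 8 were measured in each pair. At least 2-fold higher in KO macrophages were 2 without treatment and 3 after anti-PD1 (2 with TMM and DESeq2 scaling), with 0 at least 2-fold lower in either. Gatm, which uses arginine to make the creatine precursor guanidinoacetate, stood at 452 CPM in KO and 176 CPM in WT macrophages without treatment and at 946 CPM in KO and 336 CPM in WT macrophages after anti-PD1 (log2 1.36 and 1.49). Slc25a15, the mitochondrial ornithine carrier, was scarce, at 4.82 CPM in KO and 1.10 CPM in WT macrophages without treatment and at 4.93 CPM in KO and 1.81 CPM in WT macrophages after anti-PD1. Slc7a1, the constitutive arginine transporter, differed less, at 33.6 CPM in KO and 26.5 CPM in WT macrophages without treatment and at 26.9 CPM in KO and 19.3 CPM in WT macrophages after anti-PD1.

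Of 12 genes of nitric oxide synthesis and its limits, 8 were measured without treatment, with 3 at least 2-fold higher and 1 lower in KO macrophages, and 10 after anti-PD1, with 1 higher and 2 lower. Gch1, the first enzyme towards tetrahydrobiopterin, a cofactor that nitric oxide synthase needs, lay with Nos2. It stood at 47.6 CPM in KO and 101.5 CPM in WT macrophages without treatment and at 45.5 CPM in KO and 103 CPM in WT macrophages after anti-PD1 (log2 -1.09 and -1.18). Qdpr, which regenerates the cofactor, lay the other way, at 52.1 CPM in KO and 15.2 CPM in WT macrophages without treatment and at 72.1 CPM in KO and 48.0 CPM in WT macrophages after anti-PD1. Catalase (Cat) stood at 50.4 CPM in KO and 19.2 CPM in WT macrophages without treatment and at 40.3 CPM in KO and 23.0 CPM in WT macrophages after anti-PD1.

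Of 6 genes that lead from ornithine to proline and glutamate, 4 were measured without treatment, with 2 at least 2-fold higher in KO macrophages (1 with TMM and DESeq2 scaling), and 5 after anti-PD1, with 0 past 2-fold. Aldh18a1, which makes the common precursor of proline and ornithine, stood at 14.4 CPM in KO and 6.46 CPM in WT macrophages without treatment (log2 1.16). After anti-PD1 it stood at 6.89 CPM in KO and 5.48 CPM in WT macrophages (log2 0.33, 0.03 to 0.63). Of 12 polyamine genes, all measured, 1 was at least 2-fold higher in KO macrophages in each pair and 0 were lower (1 after anti-PD1 with TMM). The higher ones were Paox, a polyamine oxidase, without treatment, and spermine synthase (Sms) after anti-PD1. Paox stood at 82.5 CPM in KO and 23.6 CPM in WT macrophages without treatment and at 50.8 CPM in KO and 29.7 CPM in WT macrophages after anti-PD1. Smox, the spermine oxidase, lay the other way, at 78.9 CPM in KO and 133 CPM in WT macrophages without treatment and at 146 CPM in KO and 197 CPM in WT macrophages after anti-PD1. Azin1, which frees ornithine decarboxylase from its inhibitor, stood at 149 CPM in KO and 121 CPM in WT macrophages without treatment and at 81.2 CPM in KO and 45.7 CPM in WT macrophages after anti-PD1.

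Of 15 genes around itaconate in the Krebs cycle, 14 were measured in each pair. Without treatment 13 were higher and 1 lower in KO macrophages under CPM, TMM and DESeq2 scaling alike, with a median log2 of 0.67 where all genes had 0.09 and 57.6% of them were higher. After anti-PD1 11 were higher and 3 lower (9 and 5 with TMM, 10 and 4 with DESeq2), with a median of 0.21 where all genes had 0.12 and 57.3% were higher, so the treated values lay near the background. At least 2-fold higher were 3 without treatment (2 with TMM and DESeq2) and 1 after anti-PD1, and 0 were 2-fold lower. Idh1, the cytosolic isocitrate dehydrogenase, stood at 77.5 CPM in KO and 26.2 CPM in WT macrophages without treatment and at 61.1 CPM in KO and 21.0 CPM in WT macrophages after anti-PD1 (log2 1.57 and 1.54). Aco1, the cytosolic aconitase, stood at 33.1 CPM in KO and 10.7 CPM in WT macrophages without treatment and at 21.4 CPM in KO and 11.4 CPM in WT macrophages after anti-PD1. Sdha, a subunit of the succinate dehydrogenase that itaconate inhibits, stood at 117 CPM in KO and 55.5 CPM in WT macrophages without treatment and at 110.3 CPM in KO and 64.2 CPM in WT macrophages after anti-PD1. Its partner Sdhb was the gene that lay lower in KO without treatment (log2 -0.26), and it was named after its value was seen.

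Of 12 receptors and transcription factors upstream of the members, all measured, 0 were at least 2-fold higher in KO macrophages in either pair, and 2 were at least 2-fold lower after anti-PD1 (3 with TMM). Irf1, an interferon-induced factor, was one of the 2. It stood at 249 CPM in KO and 413 CPM in WT macrophages without treatment and at 115 CPM in KO and 263 CPM in WT macrophages after anti-PD1 (log2 -0.73 and -1.20). Cebpb was the other (log2 -1.21 after anti-PD1, against -0.26 without treatment).

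Over single macrophages thinned to 1000 UMIs, the genes most like Arg1 in all 4 libraries were Mif, Ctsl, Ccl6, Spp1 and Pgk1, of 953 genes compared. Their Pearson r with Arg1 was at most 0.240 and at least 0.118 in any library. The genes most like Nos2, in treated WT macrophages alone and of 1482 genes, were Ptgs2, Inhba, Cacna1d, Nrg1 and Sod2 (r of 0.153 to 0.173). The genes most like Acod1, in both WT libraries and of 1182 genes, were Cxcl10, Nfkbia, Sod2, Ccrl2 and Irf1 (r of 0.12 to 0.205). All these correlations are weak, are taken over sparse counts of cells that share a library, and describe the ranking only.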

How the data were processed

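The 4 deposited matrices hold whole-number UMI counts per gene and cell barcode, made by the authors with Cell Ranger 3.1.0 (untreated) and 7.2.0 (anti-PD1), per the file headers, on mm10/GRCm38, per the submitters' processing notes. The setting for intronic reads and the rule for calling cells are not given in the sources used here. Barcodes under 200 genes or over 10% mitochondrial UMIs were dropped, and doublets were removed by scrublet scores at a nominal 0.8% per 1000 barcodes. A cell joined the lineage with the largest detected share of its marker list (at least 2 markers), unless another lineage came close. CPM are summed counts of a gate, with exact Poisson intervals, and shares have Clopper-Pearson intervals. Log2 ratios carry a pseudocount of 0.5, and their exact conditional interval is taken from the counts without it. Shares and co-detection used cells thinned to 1000 UMIs. Intervals of co-detection ratios are Poisson intervals of the joint count over the product, without regard to the single counts. Pathway genes named were those with the largest change of 1 direction in both pairs, and genes like a member were ranked by their lowest r over libraries. Members and lists were chosen with earlier results of these data known. Scripts, tested on simulated data, used Python 3.11.15, scanpy 1.11.5, scipy 1.17.1, R 4.3.3, edgeR 4.0.16 and DESeq2 1.42.0, the last pair for scaling only, since 1 library per group allows no test. Alternatives covered gates, scaling, thinning, doublets and minimum counts; those with a relaxed gate, a gate without Fn1 and Thbs1, like intron length, C1q-state cells, a depth window and unshared barcodes were chosen after seeing the data. One result among the upstream factors is not reported here.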

Additional observations from a re-analysis of the deposited data

Results flagged for a closer look

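Several genes had KO/WT log2 ratios of opposite sign in a pair of lineages or treatments, with intervals that excluded 0 on both sides. None of these differences was tested, since each group is 1 library. Acod1 was lower in KO macrophages (-1.27) and T cells (-1.64) without treatment but higher in KO microglia (0.85), and microglia after anti-PD1 stood at -1.64. The untreated T cell and microglial values rest on few cells with a UMI. WT T cells with 2 or more macrophage markers held 63 Acod1 UMIs in 14 of 796 cells. KO T cells of that class held 2 UMIs in 2 of 224 cells. Microglia of that class held an Acod1 UMI in 13.5% of KO and 14.2% of WT cells, and those with 1 marker in 8.70% and 5.31%. These shares are not thinned, and the CPM of Acod1 was higher in KO in both classes. UMIs grouped in few cells can make counting intervals too narrow. Arg2 without treatment stood at 0.61 in neutrophils and at -0.47 in macrophages. Odc1 without treatment stood at 0.21 in macrophages and 0.32 in T cells, but at -0.78 in plasmacytoid dendritic cells. After anti-PD1 Odc1 stood at 0.33 in macrophages and 0.27 in microglia, but at -0.57 in T cells. Slc7a2 after anti-PD1 stood at 0.88 in macrophages and 1.74 in microglia, but at -0.58 in T cells.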

How the results depend on the processing

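No paired analysis was possible because each group is 1 library. Log2 KO/WT values follow. Arg1 without treatment was 1.42 with a strict gate, 1.00 without Ccr2, Plac8 and Vcan, 1.19 without Fn1 and Thbs1, 0.99 with a relaxed gate, 0.95 with TMM, 0.96 with DESeq2 factors, 1.47 with each cell of equal weight, 1.36 thinned, 0.38 in C1q-state cells and 1.01 against genes of like intron length. In the same order Arg1 after anti-PD1 was 0.66, 0.50, 0.59, 0.48, 0.43, 0.47, 0.68, 0.65, 0.47 and 0.65. Nos2 without treatment was -1.78 thinned and -2.41 in C1q-state cells. After anti-PD1 Nos2 was -1.87 with a relaxed gate, -1.93 with TMM, -1.88 with DESeq2 factors, -2.24 with equal weight, -2.08 thinned, -2.18 in C1q-state cells and -2.01 against like intron length. Acod1 without treatment was -1.42 with TMM, -1.40 with DESeq2 factors and -0.85 in C1q-state cells. After anti-PD1 Acod1 was -1.80 with a relaxed gate, -2.03 with TMM, -1.99 with DESeq2 factors, -1.998 with equal weight, -2.01 thinned and -1.78 against like intron length. Odc1 without treatment turned round, to -0.021 thinned and -0.063 in C1q-state cells, and the cause was not tested. The other 6 members kept their direction in both pairs under all 15 alternatives. Arg1 with Nos2 in treated WT macrophages gave 1.33 at 2 or more UMIs of each; without treatment WT had 0 such cells where 0.351 would be the product (ratio interval 0 to 10.5), and KO had 0 cells with 2 Nos2 UMIs and so no ratio. Genes at least 2-fold higher without treatment numbered 831 at a minimum of 10 UMIs and 2150 with none, and 850 and 2660 were lower; after anti-PD1 1966 and 4053 were higher, and 2282 lower with none. Depth limits Nos2 without treatment most, at 75 UMIs in KO and 232 in WT macrophages.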
